A study of Mus musculus with 55 samples.

Results

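Untreated control oocytes of the mouse were compared between the growing stage and the germinal vesicle (GV) stage. The comparison holds 6 of the 55 samples of the series, 3 libraries labelled control, which form the growing group, and 3 libraries labelled GV-C, and all 6 stand in 1 count table of 20 libraries. They were taken by their labels alone. The series studies DHX36, a helicase that unwinds G-quadruplexes, and the 6 libraries are the controls of its Dhx36 sko and of its GV-stage ligand experiments. RNA was selected by its poly(A) tail and read by sequencing.

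The growing libraries carry the label control with no genotype, strain, age or sex of the mouse, and the word growing comes from a protocol text that every sample of the series shares, the GV libraries included. The GV libraries carry GV in their titles and no treatment. Tissue is ovary and cell type oocyte in both groups. A further pair of libraries, labelled c1 and c2, names no treatment and gives no stage, and these served as a further reference set. Titles of the 3 GV and both c libraries share a prefix that the growing libraries lack, and the titles do not say what it marks. Stage and whatever goes with this prefix therefore cannot be told apart between the growing and the GV libraries. The sources used here do not say whether replicates came from separate animals or cultures, so p-values measure the spread between these libraries, which may be technical.

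Mouse oocytes enlarge inside the follicle while they transcribe and store the mRNA and proteins of the egg, among them the coat glycoproteins and the maternal factors of the early embryo. A full-grown oocyte keeps its nucleus, the germinal vesicle, arrested in meiotic prophase, falls silent in transcription and later resumes meiosis by using stored mRNA, whose poly(A) tails are shortened or lengthened by regulators of translation. DNA methylation is laid down in the same growth period.

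Libraries of a group resembled each other more than they resembled the other groups. The correlation across genes of log2 CPM, counts scaled to 1e6 per library, was 0.972 to 0.977 among growing libraries and 0.989 to 0.991 among GV libraries, against 0.918 to 0.924 between them. With c it was 0.884 to 0.895 for growing and 0.936 to 0.944 for GV libraries. Each growing library held 31930695 to 41075545 counts in total, and totals were 37627303 and 40968105 in c and 56604516 to 65444652 in GV libraries. The growing libraries were dominated by fewer genes, since the 100 most abundant held 40.3% to 43.4% of counts against 24.5% to 24.7% in GV and 25.4% to 25.5% in c libraries. With 3 libraries against 3, the exact two-sided permutation test of this share gave p = 0.10, the smallest it can give.

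Oocyte markers were abundant at both stages. The 15 fixed markers took 5.02% to 5.14% of counts in growing, 2.76% to 3.09% in GV and 1.77% to 1.84% in c libraries, and the 3 groups did not overlap (exact two-sided permutation p = 0.10 for growing against GV, the smallest possible). Granulosa and cumulus markers took 0.0124% to 0.0128% of counts in growing and 0.0339% to 0.0347% in GV libraries, theca and stroma markers 0.00345% to 0.00435% and 0.00667% to 0.00688%, and markers of immune, endothelial and blood cells 0.00608% to 0.00626% and 0.0170% to 0.0185%. As shares of counts, each of these sums was higher in 3 of 3 GV libraries. On the TMM scale used below, the summed level was 174 to 209 CPM in growing and 266 to 278 CPM in GV libraries for the granulosa list and 86.5 to 102 CPM and 133 to 147 CPM for the immune, endothelial and blood list, but 51.6 to 61.0 CPM and 52.7 to 54.0 CPM, which overlap, for theca and stroma. In each list 2 genes held most of the counts: Esr2 and Cyp19a1 75.2% of the granulosa list in growing and 87.1% in GV libraries, C1qb and Pecam1 82.5% and 86.2% of the immune, endothelial and blood list, and Myh11 and Fn1 87.1% and 87.6% of the theca and stroma list. Esr2 averaged 130.5 CPM in growing and 169 CPM in GV libraries, Cyp19a1 13.1 and 66.8 CPM, C1qb 60.7 and 78.0 CPM, and Pecam1 16.2 and 44.3 CPM. Some other defining markers were near 0. Over the growing and the GV libraries, the granulosa genes Amh had 11 and 2 counts and Foxl2 6 and 6. The theca genes Cyp17a1 had 7 and 12 and Insl3 0 and 0, and the leukocyte gene Ptprc 0 and 16. Others were not, such as Slc18a2 at 24.0 and 16.7 CPM, Kitl at 11.2 and 6.24 CPM and Tek at 6.99 and 9.34 CPM. Means above 1 CPM were found for 8 granulosa, 4 theca and 6 immune-list markers in growing libraries. In GV libraries these numbers were 7, 4 and 6. Of 30, 20 and 25 markers in these lists, 6, 5 and 7 had no count in growing and 2, 1 and 7 none in GV libraries. Their part in the differences below was not tested. In these bulk libraries, fewer cells of a type and less RNA per cell cannot be told apart.

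Most tested genes differed between the stages. By the quasi-likelihood test of edgeR, with p adjusted by Benjamini and Hochberg's method, 9324 of 15355 genes (60.7%) had an adjusted p under 0.05. Of these, 4997 were higher in GV oocytes (32.5% of genes tested) and 4327 lower (28.2%), and 3257 (21.2%) and 2020 (13.2%) changed at least 2-fold. The libraries of both stages did not overlap for 10190 genes (66.4%). Levels are given as normalised CPM, with library sizes scaled by TMM factors, a method that assumes that most genes do not differ. The factors were 0.611 to 0.714 in growing and 1.25 to 1.28 in GV libraries. With library size alone, the median over all genes was 1.01 in place of 0.09 (log2), a shift of 0.92, and the share of calls that were higher moved from 53.6% to 90.0%. Changes below are thus relative to the TMM scale, and a drop smaller than this shift turns upward with library size alone.

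**Figure D1:**
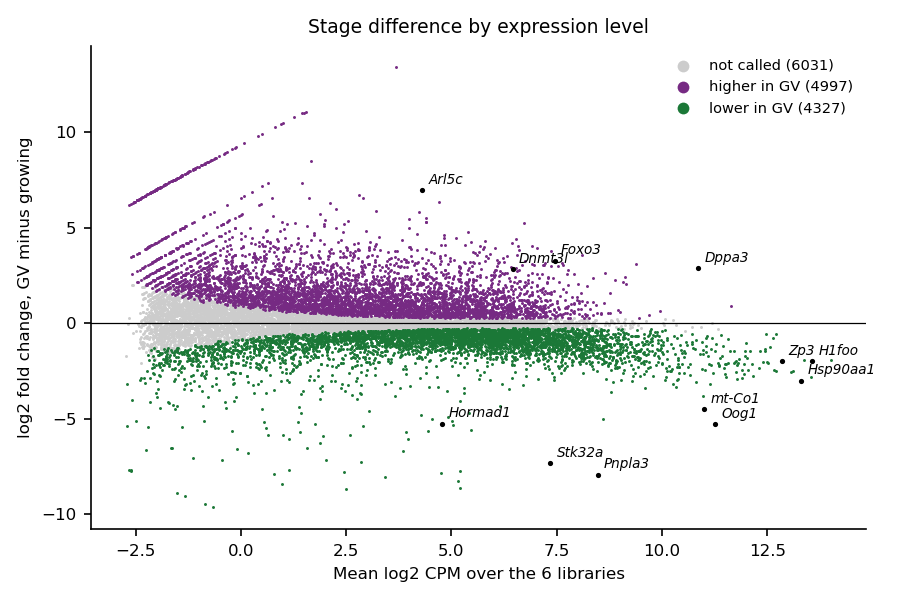
Log2 fold change from growing to GV (y axis) against the mean log2 CPM over the 6 libraries (x axis), 1 point a gene, coloured by whether edgeR called it higher (4997) or lower (4327) in GV. Most of the abundant genes lie below 0, and of the 12 labelled genes Arl5c lies highest at 6.95 and Pnpla3 lowest at -7.92.

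Genes of the egg coat and of sperm binding were mostly lower in GV oocytes. Of 9 tested, 6 were lower (66.7%, against 28.2% of all genes) and 1 higher (11.1%, against 32.5%). The median was -1.39 beside 0.09 over all genes, and 6 were lower and 3 higher with library size alone. Zp3, a coat glycoprotein gene (mm9, chromosome 5, 136455969 to 136464494, plus strand), was at 14550, 12590 and 11520 CPM in the 3 growing libraries. Its level was 3420, 3015 and 3329 CPM in the GV libraries and 2018 and 1901 CPM in c. It thus lay 3.96-fold lower in GV than in growing oocytes, with no overlap (log2 fold change -1.98, SE 0.13; edgeR adjusted p = 1.41e-08; lower in 3 of 3). Zp2, a second coat protein gene, fell from 9583, 7793 and 6789 CPM to 2063, 1595 and 1800 CPM. Zp1, which cross-links the coat filaments, fell from 2767, 2853 and 2313 CPM to 1225, 926 and 1079 CPM, 2.46-fold. All 3 zona genes were lowest in c, although Zp2 did not pass the test between GV and c (0.36, edgeR adjusted p = 0.0648). Oosp1, an oocyte-secreted protein gene, and Folr4, the egg receptor gene for sperm IZUMO1, fell 4.44-fold and 3.52-fold. Folr4 was at 970, 930 and 744 CPM in growing, 252, 237 and 261 CPM in GV and 76.2 and 83.3 CPM in c libraries.

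The windows of 250 bases before the start sites of 3 genes that fell together and 1 that rose are shown because the oocyte factor FIGLA, which acts at E-boxes, and the homeobox factor NOBOX are known regulators of the first group. The sequences are from RefSeq's GRCm38.p6, not from the build of the counts, and run 5′ to 3′ on the strand of the gene. Capitals mark matches to the E-box letters CANNTG, and to TAATTG or TAATTA, searched on both strands. The windows are chr5:135979855-135980104 on the plus strand for Zp3, and, on the minus strand, chrX:6320725-6320974 for Bmp15, chr9:78378589-78378838 for Ooep and chr9:70421555-70421804 for Ccnb2, each just upstream of the gene.
Zp3: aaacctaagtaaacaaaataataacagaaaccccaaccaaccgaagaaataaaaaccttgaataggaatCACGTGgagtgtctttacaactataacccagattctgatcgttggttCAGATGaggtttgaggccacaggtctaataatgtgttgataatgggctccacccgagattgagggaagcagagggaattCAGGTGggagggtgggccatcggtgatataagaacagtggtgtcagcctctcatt
Bmp15: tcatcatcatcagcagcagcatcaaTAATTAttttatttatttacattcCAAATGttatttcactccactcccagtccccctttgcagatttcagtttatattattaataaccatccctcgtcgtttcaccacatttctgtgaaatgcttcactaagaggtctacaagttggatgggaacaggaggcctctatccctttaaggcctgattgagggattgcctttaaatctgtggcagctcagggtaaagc
Ooep: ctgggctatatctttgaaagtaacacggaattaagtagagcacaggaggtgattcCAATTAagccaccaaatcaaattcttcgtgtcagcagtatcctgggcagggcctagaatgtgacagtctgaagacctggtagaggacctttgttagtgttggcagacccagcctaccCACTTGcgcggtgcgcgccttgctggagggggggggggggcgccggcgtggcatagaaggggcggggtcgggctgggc
Ccnb2: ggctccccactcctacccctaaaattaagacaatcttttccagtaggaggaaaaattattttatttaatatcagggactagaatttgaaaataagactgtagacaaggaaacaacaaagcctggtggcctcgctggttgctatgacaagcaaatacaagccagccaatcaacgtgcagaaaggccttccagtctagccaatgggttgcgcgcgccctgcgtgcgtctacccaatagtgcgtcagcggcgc
Zp3 held CANNTG 3 times, the farthest starting 181 bases before the start site, and neither of the other motifs. Bmp15 held 1 CANNTG and 1 TAATTA, and Ooep 1 CANNTG and 1 TAATTG, read on the other strand. In the Ccnb2 window none of these letters was found. CANNTG stood in 66.2% of 32851 promoter windows of the same length, TAATTG in 7.17% and TAATTA in 4.84%. These motifs do not overlap each other in the windows shown, and a match describes letters only.

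In the list of growth factors and follicle communication, 12 of 27 tested genes were higher and 8 lower (19 and 2 with library size alone). These were 44.4% and 29.6%, against 32.5% and 28.2% of all genes tested, and the median was 0.23. Bmp15, a growth factor gene of the TGF-beta family that acts on granulosa cells, was at 7504, 6757 and 5969 CPM in growing, 2288, 1963 and 2005 CPM in GV and 1130 and 1089 CPM in c libraries, 3.23-fold lower in GV (edgeR adjusted p = 5.36e-08). Gdf9, its partner, was at 9275, 9025 and 7799 CPM in growing and 5862, 4201 and 5422 CPM in GV oocytes, a log2 fold change of -0.75 (SE 0.14; edgeR adjusted p = 2.76e-04), which turned to 0.18 and was not called with library size alone (adjusted p = 0.161, the highest over all alternatives). Jag1, a Notch ligand gene, rose from 702, 713 and 863 CPM to 977, 1112 and 1022 CPM, a log2 fold change of 0.45 with an SE of 0.12 (edgeR adjusted p = 0.00574; up to 0.0352 over all alternatives). Kit, the receptor of KIT ligand, rose from 80.8, 74.2 and 79.3 CPM to 119.9, 119.6 and 115 CPM, 1.51-fold, with c between them at 96.4 and 91.3 CPM. Foxo3, a forkhead factor that holds primordial follicles dormant, rose from 30.8, 37.0 and 38.3 CPM to 313, 391 and 331 CPM, 9.77-fold (edgeR adjusted p = 4.61e-10). It was higher still in c, at 1087 and 1036 CPM. Slc6a9, a glycine transporter gene of oocytes, rose 4.24-fold to 8.66 ± 0.91 CPM (SD, n = 3).

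The list of oocyte transcription factors also holds other oocyte genes, among them Oog1, Tcl1 and Dppa3. Of its 28 tested genes, 17 were lower and 7 higher (median -0.68), 60.7% and 25.0% against 28.2% and 32.5% of all genes. That balance turned to 8 lower and 13 higher with library size alone (median 0.26). Obox5, a homeobox gene with many near copies and therefore an uncertain value, fell from 6903, 6606 and 5376 CPM to 1496, 1504 and 1523 CPM. Oog1, an oocyte-specific gene with near copies, fell 38.3-fold, from 6121, 4923 and 4617 CPM to 142, 131 and 135 CPM, and c lay at 110 and 163 CPM. Nobox changed by -0.44 (SE 0.11; edgeR adjusted p = 0.00338) but by 0.49 with library size alone (adjusted p = 0.00138; up to 0.0251 over all alternatives). Figla rose from 24.1, 23.4 and 28.7 CPM to 39.3, 41.2 and 40.0 CPM, 1.58-fold, and lost its call with an offset for gene length (0.05, adjusted p = 0.728, the highest over all alternatives).

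**Figure D2:**
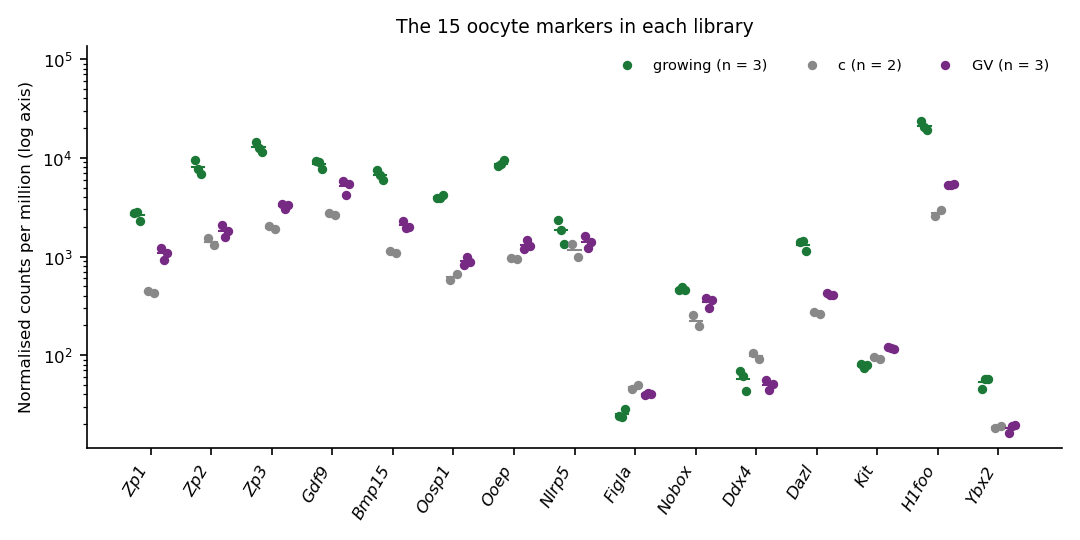
Normalised CPM (log axis) of the 15 oocyte markers in each growing, c and GV library, with a short line at the group mean. In 11 of the 15 (73.3%, against 28.2% of all genes) the GV libraries were called lower than the growing libraries. Kit and Figla were called higher (13.3%, against 32.5%), and the counts became 9 lower and 5 higher with library size alone.

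Maternal effect genes fell in the larger part, 26 of 35 tested (74.3%, against 28.2% of all genes), and 6 rose (17.1%, against 32.5%). Their median was -0.98, or -0.06 with 15 lower and 14 higher with library size alone. H1foo, the oocyte linker histone, fell from 23910, 20420 and 19040 CPM to 5277, 5258 and 5431 CPM, 3.96-fold. Per kb of gene length, among genes of at least 200 bases, it had the second highest level in growing oocytes, 17590 CPM per kb, and the highest in GV oocytes, 4431. Bcl2l10, a BCL2 family member with a role in the oocyte's spindle, led in growing oocytes at 18600 CPM per kb and fell 6.87-fold, from 22950, 23320 and 21820 CPM to 3146, 3426 and 3325 CPM. Ooep, a subunit of the subcortical maternal complex, fell 6.68-fold to 1310 ± 146 CPM (SD, n = 3), and Spin1, a reader of histone methylation, fell 3.81-fold to 7524 ± 96.4 CPM. Tcl1b1, of a family in a gene cluster on chromosome 12, fell 7.70-fold, while its relative Tcl1 rose 1.90-fold, from 2524, 2248 and 2427 CPM to 4607, 4545 and 4485 CPM. Nlrp5, the scaffold of the subcortical complex, was at 2338, 1869 and 1334 CPM in growing and 1626, 1233 and 1400 CPM in GV libraries, which overlap. It changed by -0.38 and was not called (edgeR adjusted p = 0.0656; 0.00105 to 0.256 over all alternatives), but was called lower with RLE factors, DESeq2, no filter, the length offset and the replicate block (-0.31 to -0.45; adjusted p = 0.0312 to 0.0477) and without growing replicate 3 (-0.58), and higher with library size alone (0.57). Ddx4, a germ line helicase gene, was not called either at -0.20, except lower without growing replicate 3 (-0.38, edgeR adjusted p = 0.0120) and higher with library size alone (0.74), with adjusted p up to 0.728 over all alternatives.

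Dppa3, also called Stella, protects maternal methylation marks in the zygote and stood against this trend. Its level was 414, 480 and 534 CPM in growing, 3223, 4014 and 3487 CPM in GV and 4383 and 4225 CPM in c libraries. The rise was 7.51-fold with no overlap (log2 fold change 2.91, SE 0.14; edgeR adjusted p = 1.55e-09), and per kb Dppa3 ranked second in GV oocytes, at 4007 CPM per kb. Dnmt3l, the cofactor of de novo DNA methylation in oocytes (chromosome 10, 77504692 to 77526367, plus strand), was at 22.3, 25.0 and 22.1 CPM in growing, 60.8 and 69.4 CPM in c and 186, 143 and 173 CPM in GV libraries. It rose 7.21-fold and was also 1.36 higher than in c on the log2 scale (edgeR adjusted p = 8.71e-07), so that 3 separate levels were seen. Dnmt1, the maintenance methyltransferase, went the other way, from 2547, 2524 and 2467 CPM to 706, 808 and 668 CPM, 3.45-fold lower, and c lay at 759 and 693 CPM. Zfp57, a guardian of imprints, fell 4.19-fold, from 5896, 5577 and 4488 CPM to 1231, 1266 and 1304 CPM. Over the list of DNA methylation and demethylation, 6 of 18 tested genes were higher and 5 lower (median 0.22; 14 and 4 with library size alone). These shares of 33.3% and 27.8% were near the 32.5% and 28.2% of all genes tested.

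Of 45 tested histone methylation genes, 12 were higher and 12 lower, 26.7% each way against 32.5% and 28.2% of all genes tested (median -0.10, turning to 0.83 with 28 and 4 with library size alone). The Polycomb genes Suz12 and Eed fell 5.61-fold and 2.37-fold, and Suz12 stood at 520, 618 and 802 CPM in growing against 106, 122 and 118 CPM in GV libraries. Kdm6b, a demethylase gene of the Polycomb mark, rose from 73.3, 70.1 and 84.5 CPM to 234, 258 and 248 CPM, 3.25-fold. Kdm2b, another demethylase gene, fell 3.21-fold.

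Genes of meiotic arrest and resumption gave 10 higher and 21 lower of 46 tested (median -0.32), 21.7% and 45.7% against 32.5% and 28.2% of all genes. With library size alone, this turned to 25 higher and 6 lower (median 0.62). The subunits of the kinase that drives meiotic entry into M phase did not move together. Ccnb1, the cyclin B1 gene, fell from 4814, 3767 and 3225 CPM to 1565, 1304 and 1405 CPM, 2.76-fold (edgeR adjusted p = 8.32e-07). Ccnb2, the cyclin B2 gene (chromosome 9, 70255496 to 70269361, minus strand), rose from 36.9, 28.9 and 32.2 CPM to 298, 280 and 292 CPM, 8.89-fold (edgeR adjusted p = 1.61e-10), and c lay at 344 and 315 CPM. Cdk1, the catalytic subunit, rose from 31.4, 29.6 and 34.2 CPM to 149, 148 and 151 CPM, and Cks2, which binds it, from 36.7, 53.5 and 40.9 CPM to 380, 386 and 385 CPM. Per kb of gene length, the level of Ccnb1 was 44.0 times that of Ccnb2 in growing and 1.79 times in GV oocytes. Wee2, the inhibitory kinase of prophase arrest, changed by -0.66 (SE 0.15; edgeR adjusted p = 0.00215), and by 0.28 without a call with library size alone (adjusted p = 0.0647, the highest over all alternatives). Mos, the kinase upstream of the second arrest, did not pass at 0.11 (edgeR adjusted p = 0.370; up to 0.737 over all alternatives), but rose by 1.05 with library size alone.

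Spindle and checkpoint genes had 9 higher and 15 lower of 34 (median -0.07, turning to 0.85 with 23 and 4 with library size alone). These were 26.5% and 44.1%, against 32.5% and 28.2% of all genes tested. Aurora kinases split, since Aurka of the list of meiotic arrest fell from 1247, 1157 and 856 CPM to 351, 312 and 324 CPM and Aurkc, the kinase gene of meiotic chromosomes, rose from 26.2, 30.1 and 27.3 CPM to 254, 216 and 238 CPM. Birc5, the survivin gene of the Aurora complex, fell 4.42-fold from 5126 ± 202.5 to 1158 ± 55.6 CPM (SD, n = 3 each). Bub3, a checkpoint gene, rose 4.37-fold, whereas Bub1b changed by -0.93 (edgeR adjusted p = 9.81e-05) and was not called with library size alone (-0.02, adjusted p = 0.930, the highest over all alternatives). Pttg1, the securin gene, was lower in GV than in growing and in c libraries, at 1615, 1835 and 1679 CPM against 2758, 2558 and 3419 CPM and 4893 and 4267 CPM. The drop from growing turned to 0.15 without a call with library size alone (adjusted p = 0.321, the highest over all alternatives).

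Of the genes of the earlier steps of prophase, 9 of 35 tested were higher and 15 lower (median -0.25), or 24 and 4 with library size alone (median 0.68). On the TMM scale the shares were 25.7% and 42.9%, against 32.5% and 28.2% of all genes tested. Hormad1, which watches over chromosome synapsis (chromosome 3, 95363599 to 95391593, plus strand), fell from 68.9, 54.6 and 55.2 CPM to 1.30, 1.71 and 1.68 CPM, 38.1-fold, with c between them at 22.3 and 22.6 CPM. Mnd1, a recombination cofactor gene, was at 207, 192 and 224 CPM in growing, 109 and 104 CPM in c and 27.1, 34.6 and 30.3 CPM in GV libraries. Ccnb1ip1, a crossover gene, fell 4.24-fold from growing and was 1.98 lower on the log2 scale than in c, which had 25.9 and 32.6 CPM and lay close to growing at 34.0, 32.9 and 27.4 CPM. These 3 genes were lower in GV than in both other control sets.

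Genes that store and translate maternal mRNA were mostly lower, 33 of 53 tested (62.3%, against 28.2% of all genes), and 12 were higher (22.6%, against 32.5%). Their median was -0.76, turning to 0.18 with 14 lower and 24 higher with library size alone. Cpeb1, which binds the cytoplasmic polyadenylation element, fell from 1020, 1294 and 1382 CPM to 436, 408 and 406 CPM, 2.96-fold. Dazl, a translational activator gene, fell 3.18-fold from 1320 ± 155 to 414 ± 8.34 CPM (SD, n = 3 each). Ybx2, the packaging protein of stored mRNA, fell 2.91-fold to 18.4 ± 1.76 CPM, and Fip1l1, of the polyadenylation complex, 3.14-fold. Pabpn1l, which encodes a nuclear-type poly(A)-binding protein of oocytes, rose from 109, 118 and 120 CPM to 572, 572 and 667 CPM, 5.22-fold, and was higher than in c at 431 and 475 CPM. Eif4e, the cap-binding factor, changed by -0.58 (edgeR adjusted p = 0.00441) and by 0.36 with library size alone (adjusted p = 0.0203; up to 0.0261 over all alternatives).

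Of 59 tested decay factors, 18 were higher and 23 lower, 30.5% and 39.0% against 32.5% and 28.2% of all genes (median -0.03, turning to 0.90 with 42 and 1 with library size alone). Btg4, the adaptor that brings the CCR4-NOT deadenylase to maternal mRNA, ranked 3 in growing oocytes at 11000 CPM per kb and fell 5.65-fold, from 18210, 16070 and 14790 CPM to 2811, 2935 and 2918 CPM. Cnot7, a catalytic subunit of that deadenylase, was higher in GV than in both other sets, at 581, 572 and 537 CPM against 450, 384 and 333 CPM in growing and 253 and 298 CPM in c libraries. Pan3, of a second deadenylase, rose 4.39-fold and Exosc1, of the RNA exosome, 5.86-fold. Dcp1a, a decapping gene, changed by -1.08 (edgeR adjusted p = 1.32e-06), a call that was lost with library size alone (-0.15, adjusted p = 0.191, the highest over all alternatives).

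Among genes of transcription, the general factors gave 17 higher and 21 lower of 47 (30 and 7 with library size alone). These were 36.2% and 44.7%, against 32.5% and 28.2% of all genes tested. Their median of 0.11 turned to -0.21 without growing replicate 3 and to -0.16 without GV replicate 1. Polr2c, a subunit of RNA polymerase II, fell 4.39-fold from 2498, 2426 and 2224 CPM to 579, 491 and 558 CPM, and Taf9, a TFIID subunit, rose 9.55-fold from 37.0, 34.0 and 33.8 CPM to 330, 334 and 336 CPM. Elongation and P-TEFb genes numbered 10 higher and 12 lower among 33 tested (25 and 3 with library size alone). These were 30.3% and 36.4%, against the same 32.5% and 28.2% of all genes. Their median of -0.08 turned to 0.83 with library size alone and to 0.16 without growing replicate 3. Cdk9, the kinase of P-TEFb, stood at 1.16, 0.374 and 0.350 CPM in growing, 1.57, 2.28 and 2.15 CPM in GV and 4.90 and 3.35 CPM in c libraries, 3.14-fold higher in GV (edgeR adjusted p = 0.00322; up to 0.0198 over all alternatives). Hexim1, the P-TEFb inhibitor, had too few counts for the test, with 2 over the growing and 37 over the GV libraries, a ratio of 5.61 (95% counting interval 1.45 to 48.0, counting error only). Tcea1, an elongation factor gene, fell 2.61-fold and Supt4h1, a subunit of another, rose 3.38-fold.

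Dhx36 itself (chromosome 3, 62273961 to 62310926, minus strand), the gene under study in the series, was at 10.6, 11.3 and 15.2 CPM in growing, 18.6, 16.3 and 16.8 CPM in GV and 36.0 and 32.4 CPM in c libraries. It was 1.39-fold higher in GV than in growing oocytes (log2 fold change 0.48, SE 0.16; edgeR adjusted p = 0.0171; higher in 3 of 3). The call was lost without growing replicate 1 (0.36, adjusted p = 0.0565), growing replicate 2 (0.42, 0.0618) or GV replicate 1 (0.43, 0.0675, the highest over all alternatives). The list of G-quadruplex and R-loop factors had 7 higher and 17 lower of 38, 18.4% and 44.7% against 32.5% and 28.2% of all genes. Its median was -0.27, turning to 0.64 with 21 and 5 with library size alone. Top1, the topoisomerase I gene, fell 4.71-fold from 688, 757 and 836 CPM to 132, 187 and 164 CPM, and Cnbp, a G-quadruplex-binding protein gene, fell 3.09-fold to 675 ± 51.6 CPM (SD, n = 3). Hnrnpf, a G-tract binder, fell 4.97-fold. Rnaseh2a, which cuts RNA from RNA-DNA hybrids, rose 7.75-fold, from 3.31, 3.46 and 3.85 CPM to 26.6, 27.9 and 27.8 CPM. Atrx, a chromatin remodeller, was lower in GV than in both other sets, at 537 ± 11.7 CPM against 1073 ± 31.5 CPM in growing libraries (SD, n = 3 each; edgeR adjusted p = 1.55e-06), but not called with library size alone (-0.07, adjusted p = 0.496, the highest over all alternatives).

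Energy metabolism showed opposite directions for its nuclear and its mitochondrial genes. Of the 77 nuclear genes of oxidative phosphorylation, 47 were higher in GV oocytes and 18 lower, 61.0% and 23.4% against 32.5% and 28.2% of all genes. The median was 0.61, against 0.09 over all genes, and library size alone gave 64 and 5. Ndufa1 and Ndufa2, small subunits of complex I, rose 22.0-fold and 15.5-fold, and Ndufa1 went from 2.11, 3.28 and 2.58 CPM to 56.9, 61.2 and 56.0 CPM. Ndufa10, a longer subunit gene of the same complex, rose 10.7-fold. Among those that fell were Atp5b, the beta subunit of ATP synthase, from 936, 900 and 718 CPM to 324, 272 and 315 CPM, Cox7a2l, 4.50-fold, and Sdhd, of complex II, 2.33-fold.

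All 13 protein genes of the mitochondrial genome were lower in GV than in growing oocytes (median -2.58), 12 of them with library size alone, where the median was -1.64. mt-Co1, of complex IV, went from 5096, 4004 and 3814 CPM to 245, 127 and 197 CPM, 22.7-fold, and mt-Cytb, of complex III, from 3971, 2500 and 2194 CPM to 840, 464 and 695 CPM. mt-Nd1 fell 5.99-fold, and mt-Atp6 fell 34.4-fold from 69.2 to 2.02 CPM. All 13 were higher in GV than in c libraries, so the 3 sets ranked growing, GV and c. Mitochondrial genes held 0.796% to 0.944% of counts in growing, 0.167% to 0.289% in GV and 0.126% to 0.134% in c libraries.

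Ribosomal protein genes were higher in 45 and lower in 21 of 78 tested, 57.7% and 26.9% against 32.5% and 28.2% of all genes. Their median was 0.76, and library size alone gave 58 and 11. The 3 with the highest mean CPM were among those that fell. Rpl4 went from 1684, 1546 and 1348 CPM to 307, 321 and 316 CPM, Rplp0 fell 3.97-fold and Rpl17 6.73-fold. Many of these genes have processed copies, and the sources used here do not say how reads with several matching genes were counted, so single values are uncertain. In a split made after the values had been seen, the 52 genes with a symbol of the form of their own name and -ps in the table had 29 higher and 16 lower (median 0.62), and the 26 without one had 16 and 5 (median 1.25).

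Named copies fell with or without their parent. Rps2-ps10 fell from 76.8, 65.0 and 100.9 CPM to 0.221, 0.424 and 0.489 CPM, and Rps2, taken up after its copy had been seen, fell 6.92-fold. Rps13-ps1 fell 31.9-fold, whereas Rps13 was at 192, 219 and 216 CPM in growing and 196, 222 and 205 CPM in GV libraries (-0.01, edgeR adjusted p = 0.949; up to 0.988 over all alternatives) and was called only with library size alone (0.91) and, lower, with a length offset (-0.29). Rpl17-ps3 fell 10.1-fold. Ftl2, close in sequence to the ferritin light chain gene Ftl1, fell from 79.9, 77.6 and 89.0 CPM to 0.208, 0.0794 and 0.335 CPM, and Ftl1, likewise added after its copy had been seen, by 0.54 on the log2 scale, but turned to 0.39 with library size alone. Over the 153 tested symbols that end in -ps, 51 were higher and 45 lower (median 0.02). These shares of 33.3% and 29.4% were near the 32.5% and 28.2% of all genes tested. Library size alone gave 80 and 27 (median 0.94) and a length offset 35 and 62 (median -0.59).

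Initiation factors ran against the ribosomal proteins, with 7 higher and 22 lower of 41, 17.1% and 53.7% against 32.5% and 28.2% of all genes. Their median was -0.38, turning to 0.55 with 23 and 10 with library size alone. Eif3k rose 21.1-fold, from 7.13, 10.5 and 9.89 CPM to 180, 206 and 192 CPM, and Eif1ax, a start-site factor on the X chromosome, fell 5.10-fold, from 2087, 1966 and 1978 CPM to 368, 427 and 385 CPM. Ribosome biogenesis genes had 15 higher and 30 lower of 60 (median -0.36, turning to 0.57 with 34 and 5 with library size alone). Imp3, of the U3 particle, rose 17.1-fold, and Ncl, the nucleolin gene, changed by -1.10 (edgeR adjusted p = 3.00e-06) but was not called with library size alone (-0.18, adjusted p = 0.187, the highest over all alternatives). Btf3, which binds nascent chains at the ribosome, fell 10.5-fold from 1545, 1487 and 1611 CPM to 136, 159 and 146 CPM.

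Of 34 tested proteasome subunits, 13 were higher and 13 lower, 38.2% each way against 32.5% and 28.2% of all genes tested (median 0.00). With library size alone, 23 were higher and 6 lower. Psmb4 rose 18.2-fold, from 8.24, 10.9 and 10.5 CPM to 177, 174 and 186 CPM, and Psmb1 rose 7.04-fold, while Psma7 changed by -0.99 (edgeR adjusted p = 4.05e-06) but was not called with library size alone (-0.06, adjusted p = 0.590, the highest over all alternatives). Heat shock and stress genes had 5 higher and 15 lower of 29, 17.2% and 51.7% against 32.5% and 28.2% of all genes. Their median was -0.46, turning to 0.47 with 13 and 6 with library size alone. Hsp90aa1, the inducible HSP90, fell 7.97-fold, from 19530, 18930 and 20260 CPM to 2407, 2427 and 2528 CPM. Its co-chaperone gene Dnaja1 fell 8.35-fold, from 3751, 3467 and 3272 CPM to 412, 410 and 432 CPM, and Atf4, the stress response factor, 4.72-fold. In c libraries these 3 genes lay within 1.36-fold of their GV means.

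Among 58 tested genes of DNA damage response and repair, 18 were higher and 17 lower, 31.0% and 29.3%, near the 32.5% and 28.2% of all genes tested (median 0.07; 49 and 3 with library size alone), with Xrcc5, an end-joining gene, 2.22-fold lower. Replication-dependent histones, whose messages mostly lack a poly(A) tail, had 18 higher and 5 lower of 30 (median 1.48; 23 and 2 with library size alone). Hist1h2bc rose from 16.3, 17.8 and 19.6 CPM to 124, 122 and 132 CPM, 7.04-fold. Zygotic activation genes had 1 higher and 2 lower of 8 (3 and 0 by library size), and immediate early genes 3 higher and 5 lower of 18 (9 and 1 by library size). Their shares were 12.5% and 25.0%, and 16.7% and 27.8%, none above the 32.5% and 28.2% of all genes tested. Of the cells around the oocyte, granulosa and cumulus markers had 3 higher and 4 lower of 15 (7 and 0 with library size alone), theca and stroma markers 1 and 1 of 8 (6 and 0), and immune, endothelial and blood markers 5 higher and 0 lower of 8 (8 and 0). Cyp19a1, the aromatase gene of granulosa cells, rose 5.09-fold to 66.8 ± 0.454 CPM (SD, n = 3), and the endothelial gene Pecam1 2.74-fold to 44.3 ± 2.31 CPM.

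**Figure D3:**
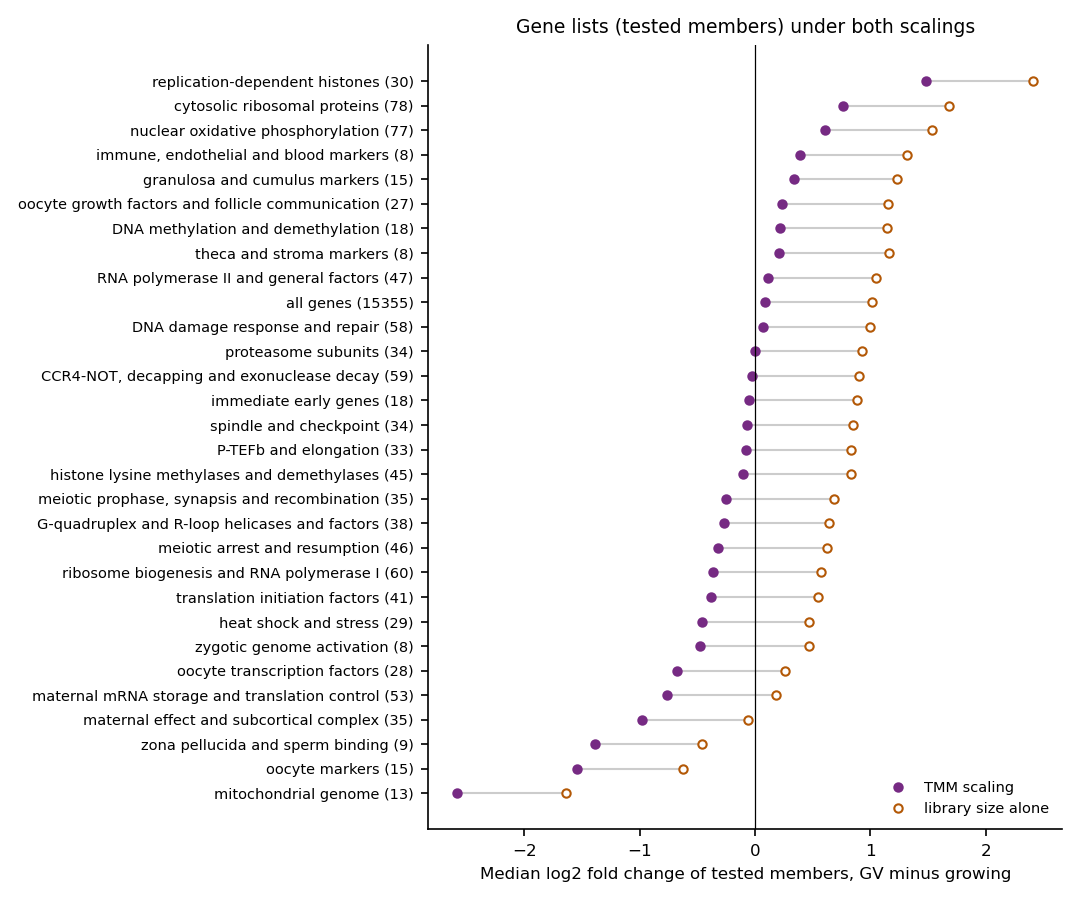
Median log2 fold change from growing to GV of the tested members of each gene list (number in brackets), with TMM scaling (filled) and library size alone (open). With TMM scaling, the mitochondrial genome (-2.58) and the oocyte markers (-1.54) lie lowest. The replication-dependent histones (1.48, with 30 of 70 genes tested) lie highest, and the open points lie to the right throughout.

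The largest single changes lay outside most of these lists. Arl5c, a gene of the ARF-like GTPase family (chromosome 11, 97850892 to 97857495, minus strand), rose from 0.199, 0.374 and 0.438 CPM to 39.5, 40.5 and 44.3 CPM, 124-fold (log2 fold change 6.95, SE 0.22; edgeR adjusted p = 4.03e-11), and c lay at 67.9 and 45.9 CPM. Txnl4a, a spliceosome gene, rose 45.8-fold, Bola1, a mitochondrial protein gene, 39.5-fold, and Anxa2, the annexin A2 gene, 24.8-fold. In each of these 4 genes the c libraries lay near the GV libraries and above every growing library. On the other side, Pnpla3, a lipid hydrolase gene (chromosome 15, 83998246 to 84019942, plus strand), fell 242-fold, from 888, 697 and 743 CPM to 3.30, 2.86 and 3.43 CPM. Its c libraries disagreed, at 51.4 and 2.55 CPM, so its place against c is uncertain.

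Genes without any overlap in detection were few. In 29 genes the growing libraries held at most 3 counts over the group while the GV mean was at least 1 CPM, and 4 genes showed the reverse. In the deeper GV libraries 3 counts are a lower level, so the reverse rule is stricter and the 29 and 4 cannot be compared. Of the 29, 21 were over 1 CPM in c as well, and their median length was 627 bases. Snrpf, a spliceosome gene named after its values had been seen, had 0 counts in growing and 1188 in GV libraries, at least 121-fold higher when the growing group is set to a floor of 3 counts in all.

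The c libraries served as a further reference for these changes, but they give no stage and share their title prefix with the GV libraries. Genes apart in growing thus follow the prefix as well, and stage cannot be told apart from it there. Where a gene was called from growing to GV, it was counted as apart in GV if GV also differed from c in the same direction, and as apart in growing if instead c differed from growing in that direction. Of the 9324 called genes, 2392 (25.7%) were apart in GV, 1373 higher and 1019 lower. Among these, 796 (8.54% of the called genes) were graded, with c also different from growing in the same direction. The other 1596 (17.1%) were apart in GV alone. A further 6178 (66.3%) were apart in growing, 3183 higher and 2995 lower, while 754 (8.09%) were neither. These sets of libraries are shared between the contrasts. In the fit of 8 libraries, GV differed from c in 7365 of 16557 genes (44.5%), 3785 higher (22.9%) and 3580 lower (21.6%). Between c and growing, 10542 genes (63.7%) differed, 5711 higher in c (34.5%) and 4831 lower (29.2%). The 25.7% apart in GV was thus not far above the share of all genes called in a single direction between GV and c. Without c replicate 1, 2376 genes were lower in GV than in c.

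Among the genes apart in GV, Sh3rf2, a ubiquitin ligase gene, had the largest rise under the rule for named genes, from 0.717, 0.796 and 0.525 CPM in growing and 0.837 and 1.67 CPM in c to 39.3, 37.8 and 39.3 CPM in GV oocytes. Its log2 difference was 5.83 (SE 0.18) from growing and 4.94 (SE 0.24) from c. Arpc3, a gene of the actin-branching complex, rose 27.2-fold, with a spread of 51.4, 131.1 and 77.5 CPM within GV. Gnrh1, the gonadotropin-releasing hormone gene, rose 16.4-fold from 10.5, 14.1 and 11.2 CPM to 181, 210 and 194 CPM, with 131 and 143 CPM in c. Ighg and Ighg1, constant-region symbols of the immunoglobulin heavy chain locus, rose 38.4-fold and 19.5-fold to 225.5 ± 16.9 and 114 ± 8.97 CPM (SD, n = 3 each). They overlap neighbouring heavy chain genes and are uncertain, and their means in c were 112 and 63.0 CPM. Every gene named in this paragraph was graded, since c was also called higher than growing.

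Stk32a, a kinase gene, was among the steepest falls apart in GV, from 378, 384 and 303 CPM in growing through 120 and 116 CPM in c to 2.34, 1.81 and 2.46 CPM in GV libraries. Bfsp1, a lens filament gene, went the same way, from 47.5, 72.4 and 60.9 CPM through 12.8 and 14.9 CPM to 0.147, 0.371 and 0.265 CPM. Agpat9, an acyltransferase gene of triglyceride synthesis, fell 48.0-fold with c at 32.4 and 39.2 CPM between the 2 stages. Gsto2, a glutathione transferase gene, was at 45.2, 42.6 and 56.2 CPM in growing and 79.1 and 63.0 CPM in c libraries, and at 1.04, 0.834 and 1.00 CPM in GV libraries, below every other library.

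**Figure D4:**
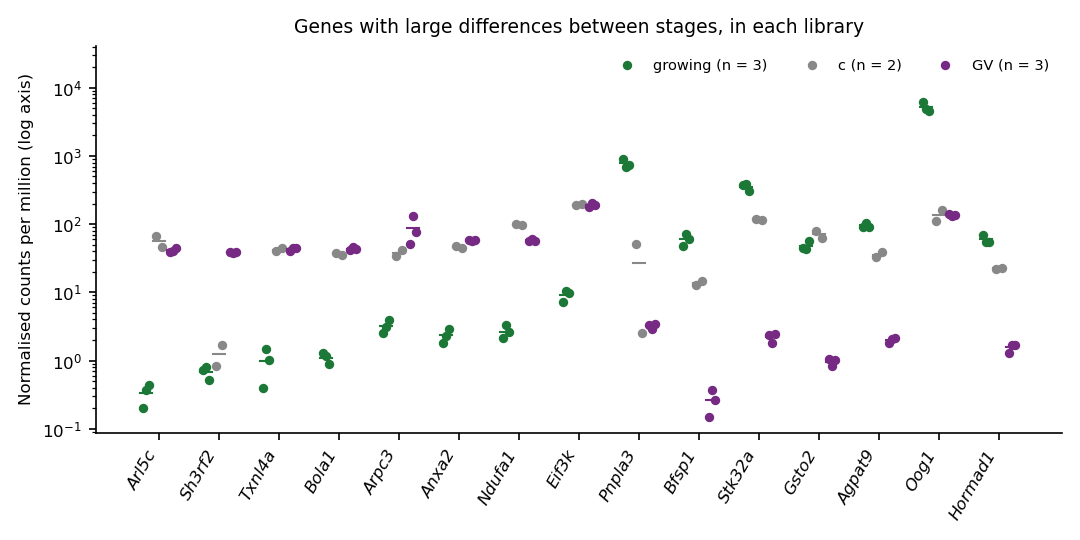
Normalised CPM (log axis) in each growing, c and GV library for 15 of the named genes, with a short line at the group mean. For Arl5c, Txnl4a, Bola1, Anxa2, Ndufa1, Eif3k and Oog1 the c libraries lie nearer the GV libraries, though c was called higher than GV for Arl5c and Ndufa1. For Sh3rf2 and Gsto2 they lie nearer the growing libraries, though c was called higher than growing for both. For Stk32a, Bfsp1, Agpat9 and Hormad1 they lie between.

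The direction of a gene moved with its level and its length. All tested genes were split into 5 equal groups by mean level, a description added after the values had been seen. The 3071 genes of highest mean CPM had 59.2% lower and 20.7% higher and a median of -0.51, and the groups of falling level had medians of -0.02, 0.20, 0.43 and 0.50. The medians of c minus growing ran alike, from 0.70 at the lowest to -0.67 at the highest level, while those of GV minus c ran from -0.13 to 0.17. By length, the shortest group (55 to 1466 bases) had a median of 0.53 with 44.1% higher, and the longest -0.03 with 26.1% higher. With an offset for length, the ribosomal proteins had 40 higher and 29 lower (median 0.52), oxidative phosphorylation 40 and 23 (0.38) and the histones 12 and 6 (0.62). Within lists, oxidative phosphorylation genes shorter than their median length had 25 higher and 7 lower of 38 (median 0.94), and the other 39 had 22 and 11 (median 0.55). The part of level and length in the single results was not tested.

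**Figure D5:**
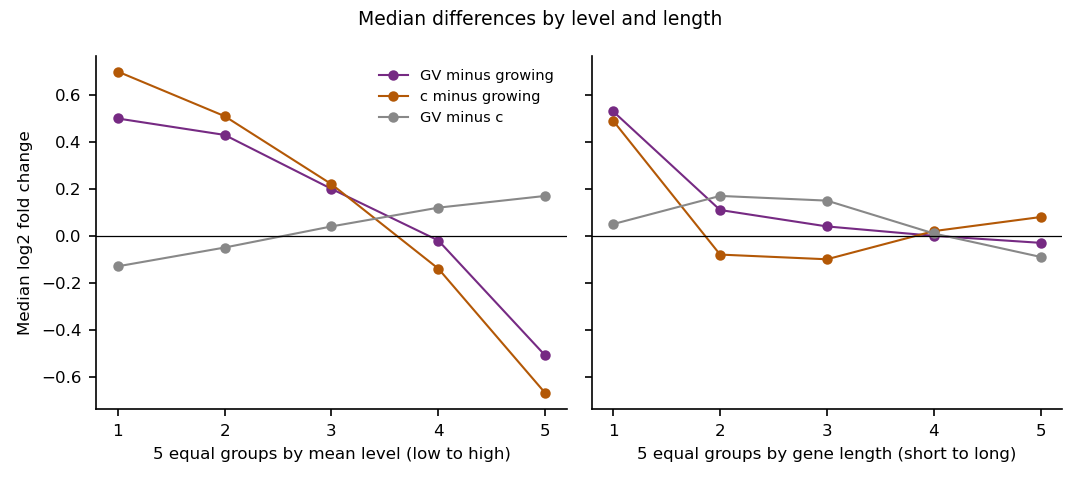
Median log2 fold change of genes in 5 equal groups by mean level (left) and by gene length (right), for GV minus growing, c minus growing and GV minus c. Both lines against growing drop from the lowest to the highest level (0.50 to -0.51 and 0.70 to -0.67), while GV minus c stays between -0.13 and 0.17.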

How the data were processed

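The deposited values are raw read counts of 33924 genes by symbol, in the column layout of featureCounts, per the file headers. Tools named in the submitters' processing notes include featureCounts 2.0.1, HISAT2 2.1.0, STAR 2.5.2b, fastp 0.21.0 and cutadapt 1.15, with build mm9. The sources used here do not give strand use or the handling of multi-mapping reads, so overlapping and antisense genes are uncertain. Gene symbols stored as dates (25) were set back. A table that repeats these columns and other assays were not used.

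The test was that of edgeR 4.0.16, run in R 4.3.3 (filterByExpr with a minimum count of 10, TMM factors, quasi-likelihood test, Benjamini-Hochberg adjustment over all genes tested, threshold 0.05). SE was derived as |log2 fold change| divided by √F and can be too small where a group has few counts. GV against growing was fitted on 6 libraries, and the contrasts with c on 8. Normalised CPM use TMM factors of the 8 libraries, and log2 CPM a prior count of 2. Depth is 31930695 to 65444652 counts a library. Intervals and floors (3 counts) cover counting error only. No 2 libraries of a group agreed within sampling noise (chi-square per gene 12.6 to 75.4). The test was also run on simulated counts in which 100 genes changed 2-fold and 100 changed 4-fold, up and down alike. For GV against growing it recovered 85% and 99% of them, with 8 false calls among 14959 genes run. For GV against c it recovered 77% and 100%, with 13 false calls among 16167. Far fewer genes changed there than were called here, so the run cannot check how TMM scaling bears on these data.

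Members and the 28 gene lists were chosen with earlier results of these data known. Named genes are the 12 largest increases and decreases among called, non-overlapping genes whose mean log2 CPM reaches 4 and an informative symbol, the 6 largest each way apart in GV and in growing, up to 3 members a list by smallest p and by level, 13 fixed genes and the 15 oocyte markers. The text gives a part of them, and some are not reported here. Alternatives were RLE factors, library size alone, DESeq2 1.42.0, no filter, a length offset (lowess span 0.3), a replicate block, 1 fit of 8 libraries and leaving out each library.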

Additional observations from a re-analysis of the deposited data

How the results depend on the processing

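The count of genes called from growing to GV stayed between 8176 and 9629 when each library was left out in turn (4360 to 5141 higher, 3816 to 4500 lower), and between 9097 and 11504 under the other settings. With library size alone, 10355 genes were higher and 1149 lower in GV than in growing oocytes, and 10401 and 1722 in c than in growing. GV differed from c in 5082 to 8249 genes when 1 library was left out (2706 to 4217 higher, 2376 to 4044 lower), and c from growing in 9142 to 10627 (4962 to 5732 higher, 4180 to 4895 lower). The counts of 2392 genes apart in GV and 6178 apart in growing became 1684 and 6026 without c replicate 1, 1905 and 5895 without c replicate 2, and 2835 and 7867 with library size alone.

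Same-numbered growing and GV libraries deviated together with a correlation of 0.07, -0.03 and 0.00. With so few libraries a group, these correlations cannot decide whether a number marks a shared animal or day, which the labels do not say. With the replicate block, 9097 genes were called (4916 higher and 4181 lower), and Nlrp5 was called at -0.35.

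With library size alone, Gdf9 (0.18), Nobox (0.49), Nlrp5 (0.57), Ddx4 (0.74), Wee2 (0.28), Pttg1 (0.15), Eif4e (0.36), Rps13 (0.91) and Ftl1 (0.39) turned upward, and Bub1b, Dcp1a, Atrx, Ncl and Psma7 lost their call. The medians of oocyte transcription factors (0.26), meiotic arrest (0.62), spindle and checkpoint (0.85), prophase (0.68), mRNA storage (0.18), decay (0.90), P-TEFb (0.83), G-quadruplex factors (0.64), ribosome biogenesis (0.57), histone methylation (0.83), zygotic activation (0.47), immediate early genes (0.88), heat shock (0.47) and initiation factors (0.55) turned upward too. The median of all genes turned to -0.05 with the length offset. Leaving out 1 library turned the medians of general transcription factors (-0.21 without growing replicate 3, -0.16 without GV replicate 1; range -0.21 to 0.17), P-TEFb (0.16 without growing replicate 3; -0.29 to 0.16), zygotic activation (0.10 without growing replicate 1; -0.76 to 0.10) and immediate early genes (0.16 without growing replicate 2, 0.06 without GV replicate 1; -0.10 to 0.16). Of 118 named genes, 117 kept their direction and side of the threshold with DESeq2, with RLE factors, without a filter and with the replicate block, and 103 with library size alone. Depth limits genes such as Cdk9 and Hexim1, whose growing libraries hold few counts. The sources name no spike-in, so all levels are relative to the other transcripts of a library. Stage and whatever goes with the title prefix cannot be told apart.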
